A study of Mus musculus with 24 samples.

Results

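The genes described here are 6 of the 54446 in the count table, found by their symbols. Ramp1, Ramp3 and Calcrl encode subunits of the receptors for calcitonin gene-related peptide (CGRP) and its relatives, Calca encodes CGRP itself, Penk encodes proenkephalin, and Vipr1 encodes a receptor for vasoactive intestinal peptide (VIP). The set was chosen with earlier results of these data known, in which Ramp3 and Calca had been selected on the size of their fall at 24 h of stimulation. The course of all 6 after stimulation was known when they were chosen. By which of these values the other 4 were picked, and whether genotype levels were looked at, is not known. The course over time is therefore given as a description without a test, and tests are given for the difference between genotypes. For Ramp3 and Calca at 24 h those tests draw on values used to choose the genes and are read as a description. All 6 genes passed the filter on low counts and were among the 15325 genes tested.

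CGRP is a neuropeptide of sensory neurons that widens blood vessels and acts on immune cells. Its receptor forms when the G protein-coupled receptor Calcrl pairs with the single-span protein RAMP1, whereas Calcrl paired with RAMP2 or RAMP3 responds chiefly to adrenomedullin, so the RAMP decides which peptide is sensed. The VIP receptor Vipr1, also called VPAC1, is well known from resting T cells. Both kinds of receptor couple to the stimulatory G protein and raise cyclic AMP (cAMP), a messenger that dampens T cell activation. Penk yields the enkephalins, short peptides that act on opioid receptors.

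CD4+ T cells were isolated from the spleens of mice on the C57BL6 background, either WT or Aim2-/-, that is, lacking the cytosolic DNA sensor AIM2. There were 3 mice of each genotype (WT 1, 3 and 4, and Aim2-/- 1, 2 and 4), and each gave 1 library at every one of 4 times: unstimulated cells at 0 h, and cells stimulated with antibodies to CD3 and CD28 for 3, 6 and 24 h. All cells were kept in the culture medium RP10, and the labels name no deletion or agent that both genotypes share beyond the stimulating antibodies. The labels do not tie the Aim2 deletion to 1 cell type, the cells were enriched by removal of other cells, and the ages of the mice are not given in the sources used here.

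The 24 libraries held between 19715161 and 21627018 counts. Levels are CPM, counts per 1000000, with library sizes scaled by TMM, and 3 counts, taken as the floor of detection, corresponded to 0.129 to 0.155 CPM depending on the library. This floor covers counting error only. The mouse labelled WT 1 went against its label: at 0 h Aim2 was at 21.5 CPM in it, against 75.0 and 67.5 CPM in WT 3 and WT 4 and 15.7 to 20.1 CPM in the Aim2-/- mice, and at 24 h it was at 5.57 CPM against 34.0 and 38.7 CPM in the other WT mice and 5.28 to 7.15 CPM in the Aim2-/- mice. The genotype differences of the 6 genes are therefore given with and without this mouse. The 5 CD4 T cell markers (Cd3d, Cd3e, Cd4, Trac and Cd28) were all present, with a summed level at 0 h of 3190 to 3336 CPM in WT and 3153 to 3443 CPM in Aim2-/- libraries. Several lists of markers of other cells had summed levels at 0 h that were higher in Aim2-/- libraries without overlap: the 6 B cell markers summed to 3.25 to 4.75 CPM in WT and 10.3 to 34.4 CPM in Aim2-/-, the 6 myeloid markers to 31.4 to 52.1 and 99.7 to 325 CPM, and the 6 neutrophil markers to 25.4 to 27.0 and 103 to 278 CPM, with every marker of the 3 lists counted in both genotypes. Basophil and mast cell markers (3.75 to 5.70 and 25.1 to 49.4 CPM) and NK cell markers (31.7 to 52.6 and 89.3 to 112 CPM) did so as well, and those of CD8 T cells, dendritic and erythroid cells overlapped. Nearly all of the difference in the NK cell sum was Eomes, with means of 31.02 CPM in WT and 88.76 CPM in Aim2-/- at 0 h. The mean of Klrb1c was only slightly higher in Aim2-/-, and Ncr1 was low, with means of 0.660 and 1.50 CPM. The NK cell sum therefore does not show that NK cells were more abundant in Aim2-/- samples. The summed endothelial markers were lower in Aim2-/- (196 to 251 and 145 to 191 CPM). Nearly all of that sum was Pecam1, with means of 227 CPM in WT and 166 CPM in Aim2-/- at 0 h. Emcn was under the floor in both genotypes, with means of 0.0506 CPM in WT and 0.0 CPM in Aim2-/-. The means of Cdh5, Kdr, Tie1 and Plvap were higher in Aim2-/-, all at 1.05 CPM or less. The endothelial sum therefore does not show that endothelial markers as a set were lower. In the B cell, myeloid and neutrophil lists the Aim2-/- mouse 1 was the highest and the Aim2-/- mouse 2 the lowest of its genotype at 0 h. The part of these cells in the genotype differences below was not tested. In bulk samples such as these, fewer cells that carry a transcript and less of it per cell cannot be told apart.

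The stretch of 250 bases before the RefSeq start of transcription is shown for the 3 genes whose levels fell furthest in WT libraries and for Calcrl, the member whose mean level was higher at 24 h than at 0 h in both genotypes. The sequences are from RefSeq (GRCm38.p6) and are written on the strand of the gene, for Ramp3 chr11:6658283-6658532 on the plus strand, for Calca chr7:114636358-114636607 on the minus strand, for Vipr1 chr9:121642466-121642715 on the plus strand, and for Calcrl chr2:84425267-84425516 on the minus strand. Capitals mark matches, on either strand, to the cAMP response element TGACGTCA, its core TGACG, the AP-1 site TGANTCA or the GC box GGGCGG.
Ramp3: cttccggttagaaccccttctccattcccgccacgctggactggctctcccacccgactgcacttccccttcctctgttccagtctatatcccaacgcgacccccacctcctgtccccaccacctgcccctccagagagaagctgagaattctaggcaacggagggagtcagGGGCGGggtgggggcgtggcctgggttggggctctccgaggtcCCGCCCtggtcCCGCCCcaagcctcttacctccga
Calca: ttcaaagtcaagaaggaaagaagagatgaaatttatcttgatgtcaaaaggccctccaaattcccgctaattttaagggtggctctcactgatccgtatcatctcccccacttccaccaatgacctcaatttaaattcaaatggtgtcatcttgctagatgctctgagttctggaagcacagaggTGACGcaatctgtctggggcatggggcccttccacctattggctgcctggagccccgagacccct
Vipr1: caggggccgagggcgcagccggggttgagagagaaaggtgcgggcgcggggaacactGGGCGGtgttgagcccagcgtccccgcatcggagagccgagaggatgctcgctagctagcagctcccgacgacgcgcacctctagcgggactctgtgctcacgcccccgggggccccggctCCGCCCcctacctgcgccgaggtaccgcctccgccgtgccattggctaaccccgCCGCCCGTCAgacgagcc
Calcrl: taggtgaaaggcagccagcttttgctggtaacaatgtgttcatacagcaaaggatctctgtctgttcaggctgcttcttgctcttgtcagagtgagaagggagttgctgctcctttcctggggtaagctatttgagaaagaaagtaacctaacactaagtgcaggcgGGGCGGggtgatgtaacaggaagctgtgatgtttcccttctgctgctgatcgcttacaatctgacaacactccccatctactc
The full response element and the AP-1 site were found in none of these windows, and in 1.55% and 6.75% of 32851 windows of the same kind. The core, which the full element also contains, was found 1 time each upstream of Calca and Vipr1, and 17.8% of all windows held it. GC boxes numbered 3 upstream of Ramp3, 3 upstream of Vipr1 and 1 upstream of Calcrl, with 32.7% of all windows holding at least 1. The core in Vipr1 runs into its last GC box, so the capitals there cover both. Of the 6 members, 5 matched an entry in the promoter table, Penk did not, and the window of Ramp1 held none of the 4 motifs. A match of letters is a description and not a binding site.

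Ramp3 encodes the accessory protein that turns Calcrl into a receptor for adrenomedullin. It lies at chr11:6658521-6677475 on the plus strand of GRCm38 (ENSMUSG00000041046). In WT cells Ramp3 was at 681, 902 and 839 CPM at 0 h in the mouse labelled WT 1 and in WT 3 and WT 4. It was at 377, 288 and 280 CPM at 3 h and at 83.9, 93.5 and 110 CPM at 6 h in the same order. At 24 h it was at 2.99, 3.13 and 4.36 CPM. The fall was thus seen in every WT mouse and at every step, and the libraries of 1 time did not overlap with those of another.

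In Aim2-/- cells Ramp3 was at 1370, 1159 and 1284 CPM at 0 h in mice 1, 2 and 4. It was at 622, 447 and 616 CPM at 3 h and at 237, 183 and 192 CPM at 6 h. At 24 h it was at 12.4, 5.59 and 11.7 CPM. Each Aim2-/- group lay above the WT group of its time and below the WT group of the time before it, so that none of the 8 groups overlapped with its neighbour in the order of levels. The mean at 24 h was 231-fold below that at 0 h in WT (807 ± 114 CPM at 0 h, SD, n = 3, and 3.50 ± 0.755 CPM at 24 h) and 128-fold below it in Aim2-/- (1271 ± 106 and 9.90 ± 3.75 CPM). In WT mice 0.348 to 0.520% of the mouse's own 0 h level was left at 24 h, and in Aim2-/- mice 0.483 to 0.911%. The antisense gene Gm11978 overlaps 101 exon bases of Ramp3 and held at most 8 counts in any group, against 205 or more for Ramp3.

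**Figure D1:**
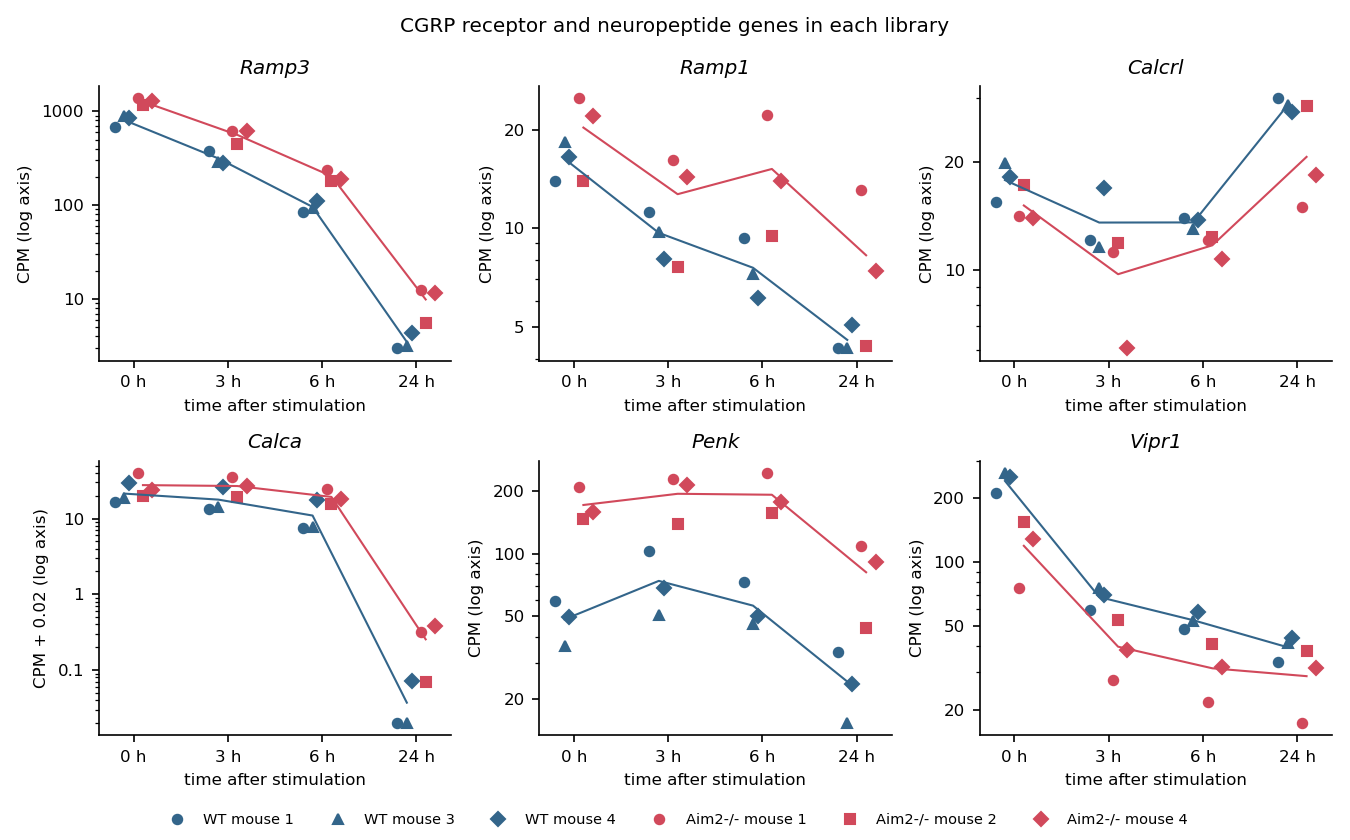
Level of each of the 6 genes in each of the 24 libraries, in CPM on a log axis (for Calca, CPM + 0.02, since 2 libraries held no count), against the time after stimulation on an evenly spaced axis. Points are libraries with 1 symbol per mouse, lines join the means of 3 mice, blue is WT and red is Aim2-/-. Ramp3 and Calca drop furthest, Vipr1 drops mostly by 3 h, Penk separates the genotypes at every time, and Calcrl is highest at 24 h.

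Between genotypes, Ramp3 was higher in Aim2-/- cells at 6 and 24 h by edgeR's quasi-likelihood test with Benjamini-Hochberg adjustment over all tested genes. At 6 h the log2 difference was 1.09 ± 0.21 (SE of the fit, 3 against 3 libraries, adjusted p = 0.00557), and at 24 h it was 1.50 ± 0.26 (adjusted p = 0.0117). Ramp3 had been selected on its fall at 24 h, so its difference at that time draws on values used to choose it and is a description. At 0 and 3 h the differences were 0.65 ± 0.20 (adjusted p = 0.0604) and 0.84 ± 0.20 (adjusted p = 0.0763) and did not pass. Without the mouse labelled WT 1 the 4 adjusted p-values were 0.148, 0.0302, 0.0157 and 0.0303 at 0, 3, 6 and 24 h. The call at 6 h was lost without WT 3 (adjusted p = 0.0541). That at 24 h was lost without any of WT 3 (0.199), WT 4 (0.0537), Aim2-/- 1 (0.117) or Aim2-/- 4 (0.0863), and without the 24 h library alone of the mouse labelled WT 1 (0.0547), of WT 3 (0.113) or of Aim2-/- 1 (0.138). It was also lost by limma-voom (0.134) and in a fit of only the libraries compared (0.181). At 0 h Ramp3 passed by DESeq2 (adjusted p = 0.0260), by limma-voom (0.0320), without the filter on low counts (0.00267) and with only the libraries compared (0.0384), and at 3 h by DESeq2 (0.00790), by limma-voom (0.0323) and without the filter (6.85e-05). Without Aim2-/- mouse 2, the Aim2-/- mouse nearest to WT, Ramp3 also passed at 0 h (adjusted p = 0.00816) and 3 h (0.0035).

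Ramp1, whose product pairs with Calcrl to give the CGRP receptor, was at much lower CPM than Ramp3 at 0, 3 and 6 h. At 24 h the means were 4.57 CPM for Ramp1 and 3.50 CPM for Ramp3 in WT, and 8.28 and 9.90 CPM in Aim2-/-. Ramp1 lies at chr1:91179822-91225196 on the plus strand (ENSMUSG00000034353). In WT cells it was at 14.0, 18.4 and 16.5 CPM at 0 h, at 11.2, 9.78 and 8.08 CPM at 3 h, at 9.36, 7.25 and 6.13 CPM at 6 h, and at 4.31, 4.32 and 5.08 CPM at 24 h. The level was lower at each later time in all 3 WT mice, and 23.5 to 30.9% of the 0 h level was left at 24 h. Ramp1 in Aim2-/- cells was at 24.9, 14.0 and 22.0 CPM at 0 h, at 16.2, 7.61 and 14.3 CPM at 3 h, at 22.1, 9.47 and 13.9 CPM at 6 h, and at 13.1, 4.38 and 7.39 CPM at 24 h. Mouse 2 was the lowest of the Aim2-/- mice at every time and lay within the WT range or below it except at 6 h. At 6 h the genotypes did not overlap, with a log2 difference of 1.00 ± 0.35 that just missed the threshold (adjusted p = 0.0525 by edgeR, 0.0747 without the mouse labelled WT 1), and it passed without Aim2-/- mouse 2 (adjusted p = 0.00207). At 0, 3 and 24 h the differences were 0.32 ± 0.34, 0.39 ± 0.34 and 0.86 ± 0.36 (adjusted p = 0.599, 0.604 and 0.187; 0.797, 0.523 and 0.321 without the mouse labelled WT 1). Without Aim2-/- mouse 2 the difference at 24 h was 1.16 (adjusted p = 0.00595).

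Calcrl, the G protein-coupled subunit common to the CGRP and adrenomedullin receptors, moved the other way late in the course. It lies at chr2:84330626-84425411 on the minus strand (ENSMUSG00000059588). In WT cells it was at 15.5, 19.8 and 18.2 CPM at 0 h, at 12.1, 11.6 and 17.0 CPM at 3 h, at 14.0, 13.0 and 13.8 CPM at 6 h, and at 30.0, 28.8 and 27.5 CPM at 24 h. All 3 WT libraries at 24 h lay above all others of WT, at 146 to 194% of the mouse's own 0 h level. Aim2-/- cells had Calcrl at 14.1, 17.3 and 14.0 CPM at 0 h, at 11.3, 11.9 and 6.07 CPM at 3 h, at 12.1, 12.3 and 10.7 CPM at 6 h, and at 15.0, 28.6 and 18.4 CPM at 24 h. The 24 h libraries of Aim2-/- spread widely, with mouse 2 at the WT level and mouse 1 at 106% of its own 0 h level. No genotype difference in Calcrl passed the threshold. The log2 differences were −0.23 ± 0.22, −0.48 ± 0.22, −0.21 ± 0.22 and −0.48 ± 0.22 at 0, 3, 6 and 24 h (adjusted p by edgeR 0.546, 0.32, 0.531 and 0.223; 0.499, 0.262, 0.657 and 0.369 without the mouse labelled WT 1), and without Aim2-/- mouse 2 that at 24 h was −0.79 (adjusted p = 0.0169). Calcrl is best known from endothelial cells. Of 6 endothelial markers, Pecam1, which T cells also express, had group means of 40.7 to 227 CPM, Kdr of 0.101 to 1.00, Tie1 of 0.204 to 1.61 and Plvap of 0.271 to 1.66 CPM, and Cdh5 and Emcn of at most 0.292 and 0.0506 CPM. The part of such cells in the Calcrl level was not tested.

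Because transcripts differ in length, levels of different genes were compared as CPM per kilobase of exon. On that scale Ramp3 made up 99.1 to 99.5% of the summed Ramp1, Ramp2 and Ramp3 level in all 0 h libraries of both genotypes. At 24 h its share was 58.8 to 64.2% in WT and 67.3 to 76.8% in Aim2-/- libraries. Ramp2 was near the floor throughout, with at most 7 counts in any library, so the change of share lay between Ramp3 and Ramp1. Per kilobase, Ramp3 was 160 ± 3.96 times as abundant as Calcrl in WT cells at 0 h (SD, n = 3) and 302 ± 56.5 times in Aim2-/- cells. At 24 h these ratios were 0.433 ± 0.113 and 1.96 ± 1.15. Ramp1 was 1.48 ± 0.0221 times as abundant as Calcrl in WT cells at 0 h and 0.258 ± 0.0361 times at 24 h. In Aim2-/- cells the ratio of Ramp1 to Calcrl was 2.23 ± 0.814 at 0 h and 0.769 ± 0.590 at 24 h. RAMP transcript thus exceeded Calcrl transcript in every library at 0 h, and in WT libraries at 24 h each RAMP was the rarer partner. Transcript ratios are not ratios of receptor protein.

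**Figure D2:**
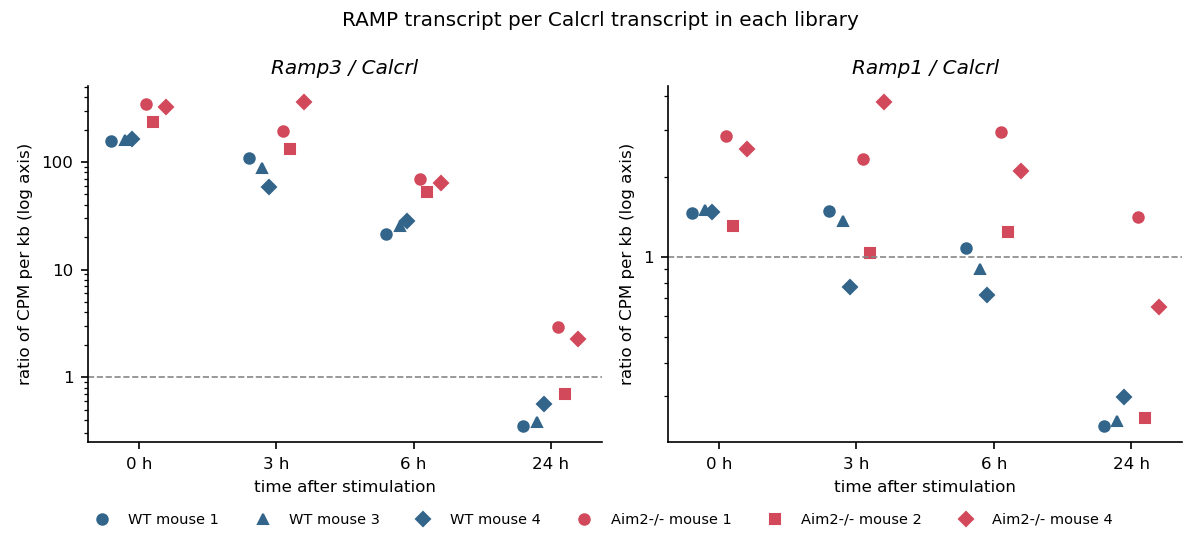
Ratio of Ramp3 to Calcrl (left) and of Ramp1 to Calcrl (right) in each library, as CPM per kilobase on log axes, against the time after stimulation on an evenly spaced axis; the dashed line marks equal levels. Ramp3 passes from 156 to 343 times Calcrl at 0 h to 0.353 to 2.94 times at 24 h, and Aim2-/- mouse 2 (red squares) is the Aim2-/- library nearest to WT in both ratios at 24 h.

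Calca encodes both calcitonin and CGRP by alternative splicing, which gene-level counts do not separate. It lies at chr7:114631478-114636357 on the minus strand (ENSMUSG00000030669). In WT cells Calca was at 16.4, 18.6 and 29.0 CPM at 0 h, at 13.3, 14.0 and 25.9 CPM at 3 h, and at 7.54, 7.74 and 17.5 CPM at 6 h. WT 4 was the highest at each of these times, and each WT mouse fell step by step. At 24 h the 3 WT libraries held 0, 0 and 1 count. Calca in Aim2-/- cells was at 39.6, 19.5 and 23.5 CPM at 0 h, at 34.9, 19.1 and 26.5 CPM at 3 h, and at 24.4, 15.5 and 17.8 CPM at 6 h, and the 24 h libraries held 6, 1 and 7 counts, or 0.293, 0.0504 and 0.359 CPM. The fall of Calca thus came late: at 6 h 41.6 to 60.4% of the mouse's own 0 h level remained in WT and 61.7 to 79.4% in Aim2-/-. From the summed counts of 1258 at 0 h and 1 at 24 h, the ratio of 0 h to 24 h in WT was 1250, with an exact 95% interval of 224 to 49402 that covers counting error only. In Aim2-/- cells, with 1693 and 14 counts, the ratio was 118 (70.1 to 216).

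No genotype difference in Calca passed the threshold by edgeR with the filter on low counts. The log2 differences at 0, 3 and 6 h were 0.37 ± 0.36, 0.60 ± 0.36 and 0.82 ± 0.36 (adjusted p = 0.553, 0.431 and 0.118; 0.797, 0.592 and 0.317 without the mouse labelled WT 1), and the libraries of the genotypes overlapped at all times. Without the 6 h library of WT 4 the difference at 6 h was 1.33 (adjusted p = 0.0474), and without the filter on low counts it was 0.74 (adjusted p = 0.0353). At 24 h both genotypes were at a few counts, the adjusted p was 0.200 (0.351 without the mouse labelled WT 1 and 0.0407 without the filter), and no fold is given.

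Vipr1 lies at chr9:121642716-121672954 on the plus strand (ENSMUSG00000032528). In WT cells it was at 211, 264 and 252 CPM at 0 h. It was at 59.5, 75.3 and 70.0 CPM at 3 h, at 48.4, 52.7 and 57.8 CPM at 6 h, and at 33.5, 41.4 and 43.4 CPM at 24 h. Most of the fall was over by 3 h, and in the 3 mice labelled WT 27.8 to 28.6% of the own 0 h level was left at 3 h and 15.7 to 17.3% at 24 h. Vipr1 in Aim2-/- cells was at 75.6, 154 and 128 CPM at 0 h, at 27.6, 53.3 and 38.1 CPM at 3 h, at 21.7, 40.7 and 31.7 CPM at 6 h, and at 17.3, 37.7 and 31.4 CPM at 24 h. Mouse 1 was the lowest and mouse 2 the highest Aim2-/- mouse at every time. The share of the own 0 h level left at 24 h was 22.8 to 24.5% in Aim2-/- mice, above that of every mouse labelled WT.

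Vipr1 was lower in Aim2-/- than in WT cells at 0 h, with a log2 difference of −1.02 ± 0.27 (242 ± 27.3 CPM in WT and 119 ± 40.0 CPM in Aim2-/-, SD, n = 3; adjusted p = 0.0354 by edgeR and 0.0461 without the mouse labelled WT 1). At 3, 6 and 24 h the differences were −0.78 ± 0.27, −0.76 ± 0.28 and −0.46 ± 0.28 and did not pass (adjusted p = 0.199, 0.0639 and 0.365; 0.141, 0.0986 and 0.369 without the mouse labelled WT 1), although the libraries of the genotypes did not overlap at 3 and 6 h. The call at 0 h was lost without WT 3 (adjusted p = 0.176), WT 4 (0.143) or Aim2-/- 4 (0.116), and without the 0 h library alone of WT 3 (0.115), of WT 4 (0.095), of Aim2-/- 1 (0.226) or of Aim2-/- 4 (0.0742), and in a fit of only the libraries compared (−1.01, adjusted p = 0.0550). At 6 h Vipr1 passed by DESeq2 (adjusted p = 0.0284), and without the filter on low counts it passed at 3 h (0.00267) and 6 h (0.00055). Without Aim2-/- mouse 2 Vipr1 also passed at 3 h (adjusted p = 0.023) and at 6 h (0.00999).

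Penk lies at chr4:4133531-4138819 on the minus strand (ENSMUSG00000045573). In WT cells it was at 59.2, 36.1 and 49.9 CPM at 0 h, at 103, 50.8 and 68.8 CPM at 3 h, at 72.8, 46.1 and 50.2 CPM at 6 h, and at 33.8, 15.4 and 23.8 CPM at 24 h. Each WT mouse was highest at 3 h and lowest at 24 h, and the mouse labelled WT 1 was the highest at every time. Penk in Aim2-/- cells was at 210, 147 and 159 CPM at 0 h, at 229, 139 and 215 CPM at 3 h, at 244, 156 and 177 CPM at 6 h, and at 109, 44.0 and 91.2 CPM at 24 h. Each Aim2-/- group lay wholly above the WT group of its time. At 24 h the share of the own 0 h level left was 42.6 to 57.1% in WT and 30.0 to 57.5% in Aim2-/- mice, so the mice of both genotypes overlapped in that share. The antisense gene A830012C17Rik overlaps 233 exon bases of Penk and held at most 3 counts in any group.

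Penk showed the largest fitted genotype difference of the 6 genes at 0, 3 and 6 h. It was higher in Aim2-/- cells by 1.83 ± 0.33 on the log2 scale at 0 h, or 3.55-fold (adjusted p = 0.00720 by edgeR), by 1.77 ± 0.33 at 6 h (adjusted p = 0.00547) and by 1.75 ± 0.34 at 24 h (adjusted p = 0.0231). At 3 h the difference of 1.39 ± 0.33 did not pass (adjusted p = 0.0721). Without the mouse labelled WT 1 all 4 comparisons passed, with adjusted p-values of 0.00359, 0.0132, 0.00397 and 0.0117. At 0 h the call was lost without WT 3 (adjusted p = 0.0653), without its 0 h library alone (0.0512) and without WT 4 (0.0688), and at 6 h without WT 4 (0.0557). At 24 h it was lost without any of WT 3 (0.221), WT 4 (0.127), Aim2-/- 1 (0.196) or Aim2-/- 4 (0.103), and without the 24 h library alone of WT 3 (0.214), of WT 4 (0.0735) or of Aim2-/- 1 (0.24), by limma-voom (0.111) and with only the libraries compared (0.177). At 3 h it was gained without Aim2-/- mouse 2 (adjusted p = 0.00806), by DESeq2 (0.00296), by limma-voom (0.0493) and without the filter on low counts (1.55e-07).

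Penk was set beside transcripts of B and plasma cells and of regulatory T cells. Igkc, the kappa light chain constant region made by B and plasma cells, was at 363 to 968 CPM in WT and 3898 to 6338 CPM in Aim2-/- libraries at 0 h, and like Penk it was highest in the mouse labelled WT 1 within WT and highest in mouse 1 and lowest in mouse 2 within Aim2-/-. Igkc differed more between genotypes than Penk did, and Penk came to 0.0989 ± 0.0375 of Igkc in WT and 0.0337 ± 0.00367 of it in Aim2-/- at 0 h. Over time Igkc fell further than Penk, and at 24 h Penk came to 0.534 ± 0.219 of Igkc in WT and 0.116 ± 0.0442 of it in Aim2-/-. Foxp3, the lineage factor of regulatory T cells, which are known to carry Penk, was at 85.0 to 117 CPM in WT and 135 to 171 CPM in Aim2-/- libraries at 0 h. Ikzf2, another gene of these cells, was at 122 to 250 and 198 to 303 CPM. Of the other listed markers of these cells, the 0 h mean of Ctla4 was 414 CPM in WT and 519 CPM in Aim2-/-. That of Il2ra went the other way, with 100 and 87.8 CPM. The 4 markers summed to 647 to 957 CPM in WT and 911 to 1125 CPM in Aim2-/- libraries at 0 h, which overlapped. Penk per Foxp3 was 0.461 ± 0.0605 in WT and 1.15 ± 0.0919 in Aim2-/-, so the level of Penk differed more between genotypes than that of Foxp3. The part of B or plasma cells and of regulatory T cells in the Penk difference was not tested.

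Counted over the 6 genes, 2 passed at 0 h (Penk higher and Vipr1 lower in Aim2-/-), against 5.23% of all tested genes called at that time. DESeq2 and limma-voom each called 3 at 0 h, against 10.1 and 5.23% of all genes. At 3 h none of the 6 passed by edgeR, against 0.294% of all genes, and DESeq2 and limma-voom each called 2, against 2.05 and 0.411%. By edgeR 4 had an unadjusted p under 0.05 at 3 h. The share of all genes under that unadjusted threshold is not given, so this count is no result about the members. At 6 h 2 passed (Penk and Ramp3, both higher), against 15.8% of all genes, and at 24 h the same 2 passed, against 0.666%. Of these, Ramp3 had been selected on its fall at 24 h, so its call at that time draws on values used to choose it. The share of all genes called was highest at 6 h, and with only 6 members no count was tested against such a share. With that mouse, labelled WT 1, left out, 2 members passed at each of the 4 times, against 5.77, 2.71, 11.4 and 1.05% of all genes. In order of time, 3, 3, 5 and 2 members had libraries that did not overlap between the genotypes, against 28.5, 15.1, 35.6 and 21.3% of all tested genes.

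**Figure D3:**
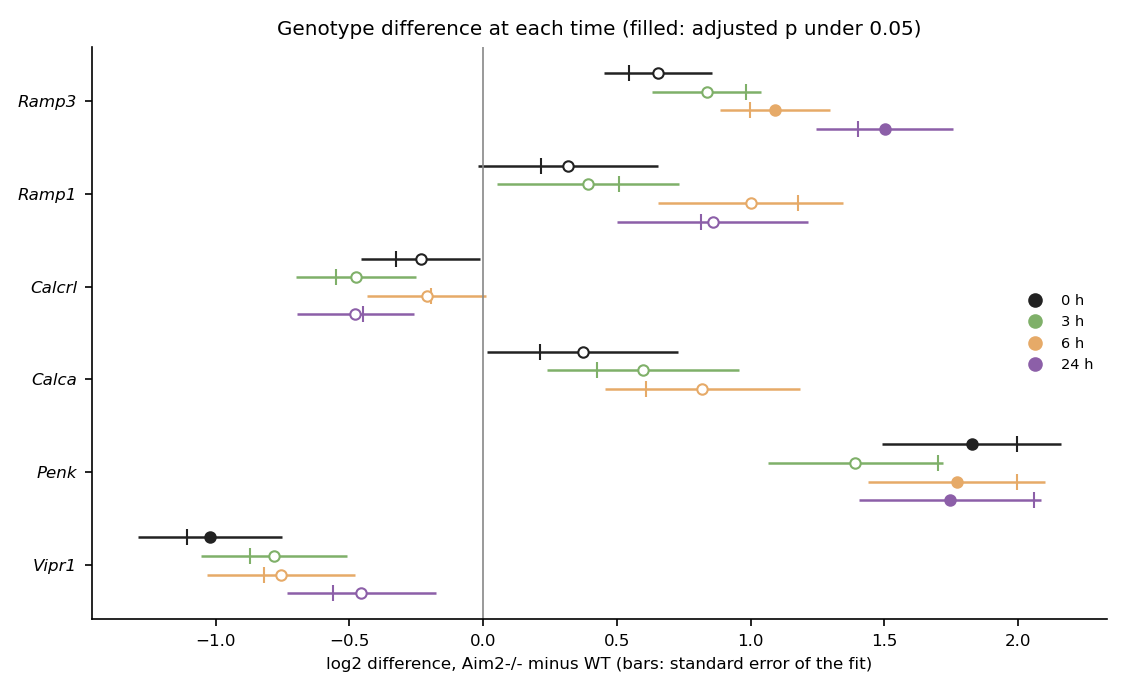
Log2 difference between Aim2-/- and WT (x axis) for each gene (y axis) at each time (colours), with bars for the standard error of the fit and filled circles for an adjusted p under 0.05; vertical ticks give the value without the mouse labelled WT 1, and Calca at 24 h is left out for its low counts. Penk lies between 1.39 and 1.83 at all times, Ramp3 between 0.65 and 1.50, and Vipr1 and Calcrl lie below 0.

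The 4 libraries of a mouse are not independent, so the counts of each mouse were also summed and tested with 3 mice against 3. None of the 6 passed by edgeR in that test, where 2 of 17163 genes (0.0117%) were called. Of the 6, 4 had an unadjusted p under 0.05, beside 23.3% of all genes, DESeq2 called 3 (with 10.1% of all genes) and limma-voom called 0 (0.0%). The log2 differences were 1.67 ± 0.26 for Penk (adjusted p = 0.0924), 0.78 ± 0.10 for Ramp3 (0.0550), −0.85 ± 0.23 for Vipr1 (0.138), 0.59 ± 0.26 for Ramp1 (0.218), 0.59 ± 0.31 for Calca (0.283) and −0.35 ± 0.14 for Calcrl (0.199). Without the mouse labelled WT 1, Penk passed (1.93, adjusted p = 0.0228) with 0.854% of all genes called, and the other 5 did not, with adjusted p-values of 0.0518 for Ramp3 (0.73), 0.120 for Vipr1 (−0.94), 0.293 for Ramp1 (0.61), 0.479 for Calca (0.42) and 0.262 for Calcrl (−0.37).

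A single mouse bore on all these counts. In each of the 24 pairs of a gene and a time, the Aim2-/- library nearest to the WT group was that of mouse 2, whether the gene was higher or lower in Aim2-/-. Without this mouse the summed test called 5 of the 6 genes (all but Calca), with adjusted p-values of 0.0181 for Penk, 0.0169 for Ramp3, 0.0266 for Vipr1, 0.0229 for Ramp1 and 0.0219 for Calcrl, against 16.7% of all genes. The counts of members called at 0, 3, 6 and 24 h were then 3, 3, 4 and 4, against 13.7, 7.31, 25.7 and 17.3% of all genes. This mouse was singled out after its values were seen. Its part in the differences beyond these values was not tested.

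The course after stimulation was compared between genotypes by the interaction of genotype and time. None of the 6 genes passed by edgeR at 3, 6 or 24 h, where 0.0, 0.0261 and 0.0% of all genes were called. DESeq2 and limma-voom called none of the 6 either, and an unadjusted p under 0.05 was reached by 0, 0 and 1 of the members at the 3 times, beside 4.26, 13.2 and 11.9% of all genes. That 1 was Ramp3 at 24 h. Ramp3 and Calca had been selected on their fall at 24 h, so their interaction at that time draws on values used to choose them and is given as a description. The course of the other members was also known when they were chosen, so their interactions are read as a description too. The fitted fall of Ramp3 was smaller in Aim2-/- cells by 0.85 ± 0.33 on the log2 scale (adjusted p = 0.298, and 0.338 without the mouse labelled WT 1), by 1.07 without Aim2-/- mouse 2 (adjusted p = 0.0490) and by 1.13 without its 24 h library alone (adjusted p = 0.0440). For Vipr1 at 24 h the interaction was 0.57 ± 0.39 (adjusted p = 0.588, and 0.684 without the mouse labelled WT 1). Since each mouse gave cells at all times, the same test was run with each mouse as a block, and Vipr1 then passed at 24 h with 0.56 ± 0.11 (adjusted p = 0.00980), against 2.77% of all genes. With that block and all 6 mice no other member passed at any time. With the block and without the mouse labelled WT 1, Vipr1 passed at 24 h (0.54, adjusted p = 0.0206, against 4.22% of all genes) and Ramp1 at 6 h (0.92, adjusted p = 0.0374, against 3.49%).

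**Figure D4:**
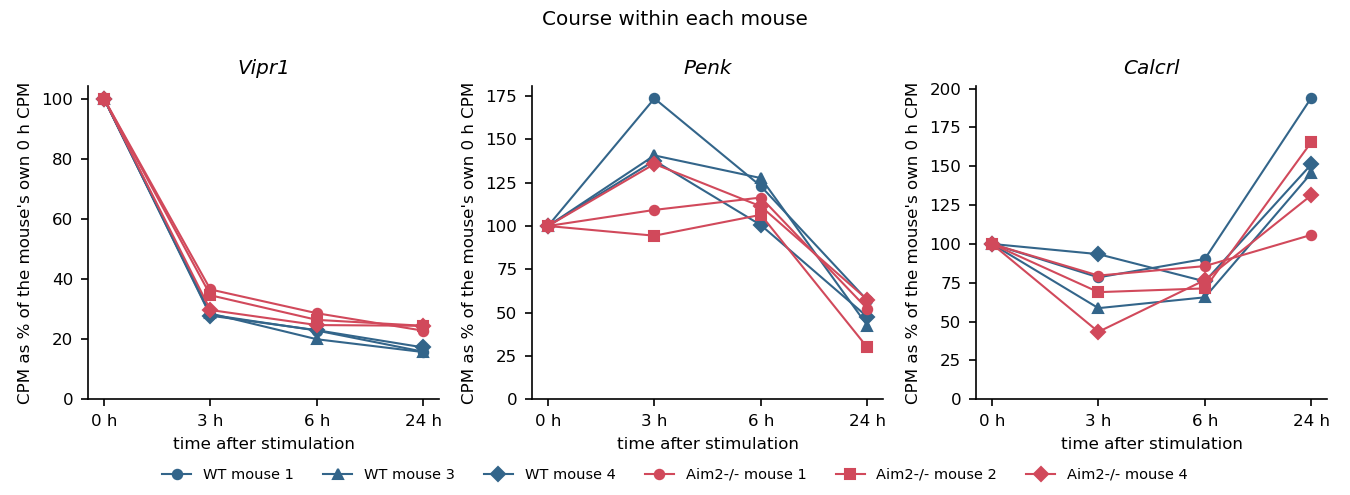
Level of Vipr1, Penk and Calcrl in each mouse as a percentage of the CPM of the same mouse at 0 h, against the time after stimulation on an evenly spaced axis; blue is WT and red is Aim2-/-. For Vipr1 the WT mice end at 15.7 to 17.3% and the Aim2-/- mice at 22.8 to 24.5%, whereas for Penk and Calcrl the mice of both genotypes overlap.

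The other genes of the peptide systems were taken from lists of 112 genes in all, of which 54 were tested, 40 held some counts but were too low to test, and 18 held no count. By edgeR 5 rose and 19 fell at 3 h, 10 rose and 25 fell at 6 h, and 14 rose and 30 fell at 24 h in WT cells, and in Aim2-/- cells 4 rose and 15 fell, 7 rose and 19 fell, and 9 rose and 27 fell. Over all tested genes 32.6, 51.1 and 71.4% were called at the 3 times in WT, with 16.2, 26.4 and 36.6% higher and 16.4, 24.8 and 34.8% lower, and 30.7, 51.2 and 70.3% in Aim2-/-, with 16.1, 28.5 and 36.8% higher and 14.6, 22.7 and 33.5% lower. The 5 activation genes rose at 3 and 6 h in both genotypes and 4 of them did at 24 h, and of the 6 genes of the resting state 5 fell at 3 and 6 h and all 6 at 24 h. Of the calcitonin family besides the members, 2 of 9 genes were tested. Crcp, which encodes a receptor component protein that couples the CGRP receptor to signalling, rose from 30.9 ± 0.568 CPM at 0 h to 57.9 ± 1.95 CPM at 24 h in WT (SD, n = 3; log2 difference 0.90, adjusted p = 6.02e-10 by edgeR) and from 29.6 ± 1.53 to 51.6 ± 1.51 CPM in Aim2-/- (0.80, adjusted p = 4.5e-09). Adm, the adrenomedullin gene, stayed at group means of 0.134 to 0.565 CPM. The calcitonin receptor Calcr held at most 3 counts in any library, and Calcb, the gene of the second form of CGRP, at most 9. Vip, the gene of the peptide that Vipr1 senses, held at most 3 counts in a library, and the opioid receptor genes Oprm1, Oprd1 and Oprk1 at most 7, 3 and 1. Of the 8 opioid genes 2 were tested. Pomc, the precursor gene of beta-endorphin, rose in WT from 0.389 to 1.11 CPM at 24 h (adjusted p = 0.0243) and in Aim2-/- from 0.344 to 1.21 CPM (adjusted p = 0.0088). Ogfr, a receptor for a Penk peptide that is no G protein-coupled receptor, rose from 156 to 219 CPM in WT (0.49, adjusted p = 0.000112) and was at 184 and 211 CPM in Aim2-/- (0.20, adjusted p = 0.067).

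Of 8 listed enzymes that cut or inactivate peptides, 6 were tested, and at 24 h 1 rose and 3 fell in WT and 0 rose and 2 fell in Aim2-/- cells. Pcsk1, the prohormone convertase that cleaves proenkephalin, fell from 5.29 ± 2.23 to 1.52 ± 0.427 CPM in WT at 24 h (adjusted p = 0.00233) and from 9.04 ± 2.84 to 2.21 ± 0.984 CPM in Aim2-/- (adjusted p = 0.000697). Dpp4, the surface protease CD26 that trims VIP-like peptides, fell from 63.9 ± 10.4 to 23.0 ± 3.41 CPM in WT (log2 difference −1.48, adjusted p = 9.65e-08) and from 55.5 ± 2.61 to 23.7 ± 3.21 CPM in Aim2-/- (−1.22, adjusted p = 1.49e-06). Of 39 other neuropeptide and receptor genes 5 were tested, and at 24 h 1 rose and 4 fell in both genotypes. Nts, the neurotensin gene, rose from 0.0172 to 0.716 CPM in WT at 24 h (adjusted p = 0.000629) and from 0.0328 to 0.934 CPM in Aim2-/- (adjusted p = 0.000433), with both 0 h groups under the floor. Nmb, the gene of the bombesin-like peptide neuromedin B, fell from 9.68 ± 1.18 to 2.33 ± 0.673 CPM in WT (−2.05, adjusted p = 4.1e-08) and from 9.53 ± 0.778 to 3.04 ± 0.950 CPM in Aim2-/- (−1.65, adjusted p = 8.28e-07). The log2 fits of edgeR are adjusted over all tested genes, and the 3 times of a genotype share its 0 h libraries.

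Downstream of Calcrl and Vipr1 lies the cAMP pathway, of which 31 of 36 listed genes were tested. In WT cells 2 rose and 16 fell at 3 h, 4 rose and 20 fell at 6 h, and 7 rose and 20 fell at 24 h by edgeR. In Aim2-/- cells 2 rose and 13 fell at 3 h, 3 rose and 16 fell at 6 h, and 5 rose and 18 fell at 24 h. The median log2 difference of the list in WT was −0.40, −0.64 and −0.65 at 3, 6 and 24 h, beside 0.02, 0.02 and −0.01 over all genes.

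Among the genes that fell were phosphodiesterases, which break down cAMP. Pde4b fell in WT from 449 ± 23.3 CPM at 0 h to 31.3 ± 1.93 CPM at 24 h (log2 difference −3.84, adjusted p = 1.33e-15), Pde4d from 307 ± 38.9 to 26.3 ± 3.56 CPM (−3.54, adjusted p = 3.21e-13) and Pde3b from 387 ± 36.6 to 73.5 ± 4.51 CPM (−2.39, adjusted p = 3.27e-11), and in Aim2-/- cells their log2 differences were −3.46, −2.95 and −2.05. Pde4c went the other way, from 0.680 ± 0.224 to 5.84 ± 0.770 CPM in WT (3.10, adjusted p = 3.01e-08). Crem, a cAMP-responsive transcription factor gene, fell from 523 ± 62.0 to 45.2 ± 1.66 CPM in WT (−3.53, adjusted p = 8.11e-14) and from 820 ± 84.1 to 78.4 ± 15.7 CPM in Aim2-/- (−3.39, adjusted p = 1.93e-13). Of the subunits of protein kinase A, the kinase that cAMP activates, the catalytic Prkaca rose in WT from 55.8 ± 2.12 to 107 ± 1.72 CPM (0.94, adjusted p = 2.22e-09) and the regulatory Prkar1a fell from 928 ± 15.1 to 482 ± 28.1 CPM (−0.94, adjusted p = 8.02e-11).

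Other receptors that couple to the stimulatory G protein in T cells moved in both directions. Adora2a, an adenosine receptor, fell from 168 ± 17.8 to 28.1 ± 3.36 CPM in WT at 24 h (−2.58, adjusted p = 3.82e-12). Adora2b, another adenosine receptor, rose from 0.204 ± 0.105 to 3.07 ± 0.853 CPM (3.88, adjusted p = 6.35e-06). Ptger4, a prostaglandin E receptor, rose from 69.6 to 93.9 CPM in WT (0.43, adjusted p = 0.000269), and in Aim2-/- cells it was at 81.3 and 91.7 CPM (0.17, adjusted p = 0.0982).

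**Figure D5:**
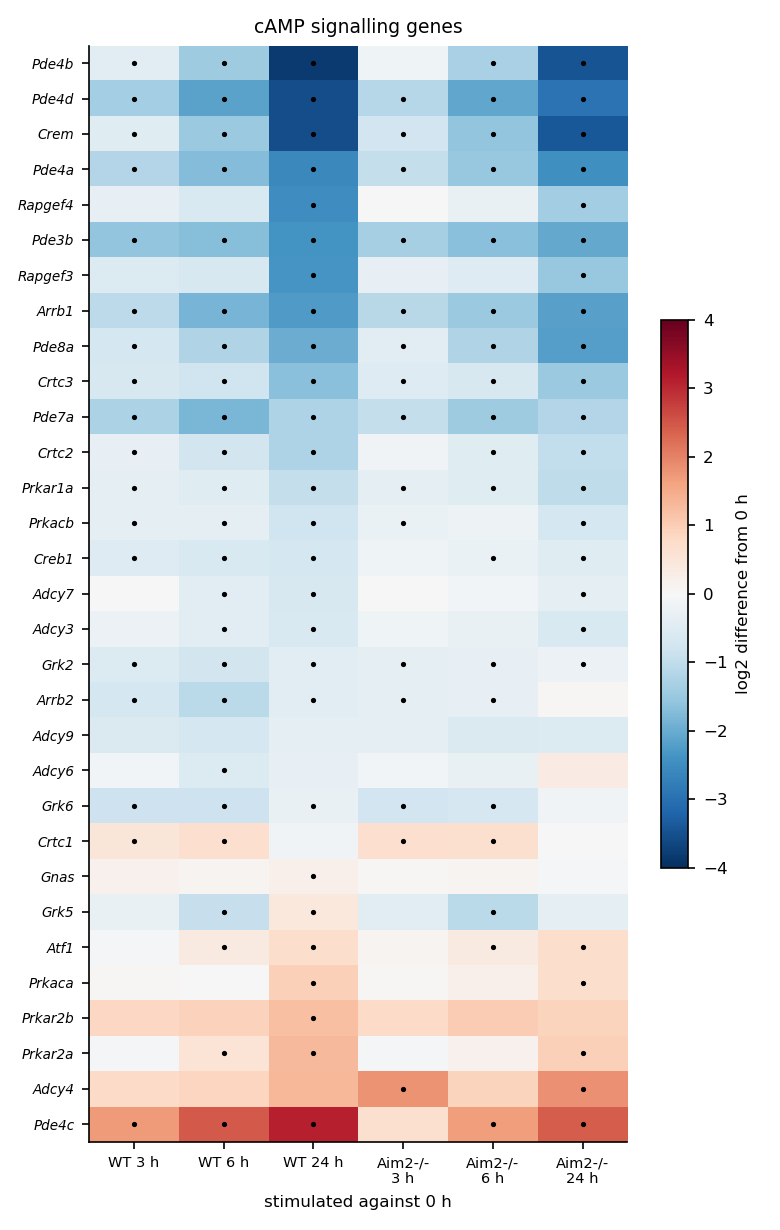
Log2 difference from 0 h (colour) for the 31 tested genes of the cAMP list (y axis) at 3, 6 and 24 h in WT and Aim2-/- cells, with dots where the adjusted p was under 0.05. In WT at 24 h 20 cAMP genes fell, led by Pde4b at −3.84, and 7 rose, led by Pde4c at 3.10.

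Between genotypes, 7 of the 54 tested list genes were called at 0 h (13.0%, against 5.23% of all genes). Of these 4 were higher in Aim2-/- cells, namely Adora2a (0.69 ± 0.14, adjusted p = 0.0123), Adora2b (2.92 ± 0.61, 0.0132), Crem (0.65 ± 0.14, 0.0162) and Npy (2.07 ± 0.54, 0.0357), and 3 were lower, namely Creb1 (−0.37 ± 0.08, 0.0130), Pde3b (−0.63 ± 0.15, 0.0281) and Arrb2 (−0.31 ± 0.08, 0.0278). At 3 h none passed by edgeR, DESeq2 or limma-voom, and 2 passed without the mouse labelled WT 1, against 2.71% of all genes. By edgeR 11 had an unadjusted p under 0.05 at 3 h, with no share of all genes to set beside that count. At 6 h 10 passed (18.5%, against 15.8% of all genes), 9 of them higher, Crem and Npy included, and Pde3b lower. Arrb2, lower in Aim2-/- at 0 h, was among those higher at 6 h (0.44 ± 0.08, adjusted p = 0.00484 by edgeR). In the interaction of genotype and time at 6 h Arrb2 alone of the 54 list genes passed by edgeR (0.74 ± 0.11, adjusted p = 0.0135), against 0.0261% of all genes. At 24 h Crem passed alone (0.79 ± 0.14, adjusted p = 0.0166), or 1.85% of the list genes against 0.666% of all genes. With the mouse labelled WT 1 left out, 8, 6 and 1 of the 54 passed at 0, 6 and 24 h, against 5.77, 11.4 and 1.05% of all genes.

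For each member, the 3 tested genes with the most similar log2 CPM over the 24 libraries were named by Pearson's r. The libraries share mice and times, so r is a description of a shared course and of shared mice. For Ramp3 these were Crem (r = 0.993), Ifngr1 (0.989), a subunit of the interferon gamma receptor, and Neurl3 (0.988). Crem was at 458, 530 and 582 CPM in WT and 855, 724 and 881 CPM in Aim2-/- at 0 h, and like Ramp3 its groups did not overlap at 0 h. For Vipr1 they were Pde3b (0.967), Uggt1 (0.966) and Usp53 (0.964), and Pde3b, like Vipr1, was lowest in mouse 1 and highest in mouse 2 of the Aim2-/- mice at 0 h (197 and 288 CPM). For Calca they included Itm2b (0.986) and Cxcr6 (0.985), a chemokine receptor, and for Ramp1 they were the complement gene C1qb (0.960), Ripor1 (0.950) and Tsc22d1 (0.944). For Penk they were Igkc (0.972), Ighg2c (0.962) and Mzb1 (0.961), all genes of B and plasma cells. For Calcrl they were Rnf168 (0.926), Fam53b (0.918) and Rbm15 (0.902). By Spearman's rho, of the genes named here C1qb, Crem and Cxcr6 stayed among the 3 most similar, and by the means of the 8 groups Rnf168 did; rho was 0.775 for Itm2b with Calca. Among the members themselves, r was −0.75 for Calcrl with Penk and −0.74 for Calcrl with Calca.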

How the data were processed

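Splenic CD4+ T cells of 3 WT and 3 Aim2-/- mice, each sampled at 0, 3, 6 and 24 h, were measured by stranded poly(A) RNA-seq in 24 libraries. The authors deposited raw counts per Ensembl gene, and the submitters' processing notes name STAR, edgeR, DESeq2 and GRCm38 without versions. Whether counting used strand is not given in the sources used here.

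The 54446 genes were filtered with edgeR's filterByExpr (minimum count 10), leaving 15325. TMM factors and quasi-likelihood tests (edgeR 4.0.16, R 4.3.3, two-sided) were fitted over 8 groups of 3 libraries, with Benjamini-Hochberg adjustment within each comparison and a threshold of 0.05. The common dispersion was 0.0346, a biological coefficient of variation of 18.6%. Log2 CPM used a prior count of 2. Totals were 19715161 to 21627018 counts, and 3 counts were the floor. The interval of a ratio of counts is an exact binomial one at 95%. Tables and plots were made with Python 3.11.15, pandas 2.3.3, scipy 1.17.1 and matplotlib 3.10.9, and the fit was tested on simulated data.

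The named genes were the 6 members, Aim2, the 3 tested genes most similar to each member over the 24 libraries (clone and predicted gene names left out) and any gene of lists for the calcitonin family, VIP and PACAP, opioids, peptide processing, other neuropeptides, cAMP signalling, other receptors coupled to the stimulatory G protein, the resting state and activation. Members and lists were chosen with earlier results of these data known. A gene that the rule names is not reported here. Igkc, Foxp3 and Ikzf2 were looked at after their values were seen.

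Libraries of the same mouse deviated together from their group means (r = 0.139 to 0.567 over 36 pairs of libraries, against −0.432 to 0.0742 over 72 pairs of different mice), and the labels give the mouse, so tests across time were also run with each mouse as a block. Alternatives were RLE factors or library totals, no filter or a mean of at least 1 CPM, DESeq2 1.42.0, limma-voom (limma 3.58.1), a fit of only the libraries compared, blocks, and each library and mouse left out in turn. A fit of the interaction with each mouse as a block and without the mouse labelled WT 1 was chosen after seeing the data.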

Additional observations from a re-analysis of the deposited data

Results flagged for a closer look

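The fitted fall of Vipr1 by 24 h was smaller in Aim2-/- cells when each mouse was its own block, by 0.56 ± 0.11 on the log2 scale (adjusted p = 0.00980 by edgeR). It was smaller in 3 of 3 Aim2-/- mice than in any mouse labelled WT. The course of Vipr1 was known when it was chosen, so these values are a description. Without the mouse labelled WT 1 the difference was 0.54 with the block (adjusted p = 0.0206) and 0.55 without it (adjusted p = 0.684). With all mice and without the block the difference was 0.57 ± 0.39 (adjusted p = 0.588), and over the 27 alternatives the adjusted p ran from 0.00980 to 0.979, with 2 of them under 0.05. The groups held 3 libraries each, too few for single libraries to be checked as outliers.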

How the results depend on the processing

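The number of members called moved with the settings. With the mouse number as a block it was 4, 5, 5 and 5 at 0, 3, 6 and 24 h, but these numbers are shared by different mice of the genotypes, and 23.6, 15.2, 36.0 and 21.1% of all genes were then called. Without the filter it was 3 at 3 h, 5 at 6 h and 3 in the summed test (2.47, 9.38 and 1.73% of all genes). By DESeq2 it was 2 at 3 h, 4 at 6 h and 3 in the summed test (2.05, 21.4 and 10.1%), by limma-voom 2 at 3 h and 0 at 24 h (0.411 and 0.0326%), and with only the libraries compared 0 at 24 h. The interaction at 24 h gave 1 with each mouse as a block, and with that block and without the mouse labelled WT 1 it gave 1 at 6 h and 1 at 24 h. With a library or mouse left out, the counts ran from 0 to 3 at 0 h, 0 to 3 at 3 h, 1 to 4 at 6 h, 0 to 4 at 24 h, 0 to 5 in the summed test and 0 to 1 for the interaction at 24 h. The share of all genes called moved as well. Without WT 3 it was 0.191, 0.00638, 1.14 and 0.0% at the 4 times, and without Aim2-/- 2 it was 13.7, 7.31, 25.7 and 17.3%. In the summed test these shares were 0.0 and 16.7%, and for the interaction at 24 h 0.0 and 1.29%. No share is given for the fit of only the libraries compared. These counts are no result about the members. The cause was not tested. Over all genes 802 were called at 0 h, 1553 by DESeq2, 1499 without the filter, 30 without WT 3 and 37 without WT 4, and at 24 h 102, 787 by DESeq2, 962 without the filter and 5 by limma-voom.

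No difference that changed sign was called under the setting that changed it. The interaction of genotype and time for Calcrl at 6 h (0.02) was −0.0251 without the filter, −0.0122 with a mean of at least 1 CPM and −0.0728 with only the libraries compared. It was −0.0929 to 0.137 with 1 library or mouse left out. Left-out ranges of the interaction that crossed 0 were also −0.0561 to 0.601 for Calca at 3 h, −0.419 to 0.0062 for Calcrl at 3 h, −0.354 to 0.232 (0.0044 with the block and without the mouse labelled WT 1) and −0.267 to 0.170 for Penk at 24 and 6 h, −0.141 to 0.337 for Ramp1 at 3 h and −0.0365 to 0.494 for Vipr1 at 3 h. Of the genotype differences at single times, that of Calca at 0 h had a left-out range that crossed 0, −0.0117 to 0.622. Of the 54 list genes, the calls after stimulation with 1 library or mouse left out ran from 18 to 24, 28 to 34 and 39 to 42 in WT and from 14 to 20, 23 to 29 and 31 to 40 in Aim2-/- cells at 3, 6 and 24 h. Calca held 0 to 7 counts a library at 24 h.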
